A study of Arabidopsis thaliana with 12 samples.

Results

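The organ difference between root and shoot was described in control seedlings of Arabidopsis thaliana, a small flowering plant. It rests on 5 of the 12 arrays of the series, chosen by their titles: roots under DMSO, replicates 1 and 2, and shoots under DMSO, replicates 1 to 3. All plants, these controls included, carried a transgene that makes the signalling peptide CLE3 when estradiol is given, and the series asked which genes lie downstream of that peptide. The roots of 7-day-old seedlings, grown upright on Murashige and Skoog medium at 22 °C under continuous white light, received the solvent DMSO alone for 24 h, and the organs were then harvested apart. The labels do not say whether replicates were separate cultures, and no untransformed seedlings are part of the comparison. A further label field, the source name, gives estradiol for the root arrays and conflicts with the titles and descriptions. It was not used. Each organ was measured in bulk, so that fewer cells of a type and less RNA per cell cannot be told apart.

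Shoots of seedlings carry cotyledons and young leaves, whose green cells capture light, fix carbon and export sugar, and whose epidermis forms stomata, the pores for gas exchange. Roots take up water and minerals through hairs and a sealed endodermis, branch by lateral roots, live on imported sugar and hold stores of defence compounds and enzymes. Plastids are present in both organs, but only those of green tissue become photosynthetic chloroplasts.

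The titles of the 5 arrays matched their profiles, and that of the array titled root DMSO replicate 3 did not. Over all features, the root arrays correlated at 0.987 with each other, shoot arrays at 0.978 to 0.981, and root with shoot arrays at 0.869 to 0.872. Replicate 3 of the roots had a mean correlation of 0.873 with the other root arrays and 0.981 with the shoot arrays. Of 14 listed root markers, such as the root beta-glucosidase genes and root hair expansins, 6 were measured, and their summed linear level was 16829 and 15928 in root replicates 1 and 2 and 4368, 4431 and 5055 in the shoots. The array titled root DMSO replicate 3 summed to 5160.5. Linear sums weigh the brightest markers most and do not give the difference of each marker. All 6 measured root markers were higher in root. Of 13 listed markers of photosynthetic cells 7 were measured, with sums of 1250.0 and 1754 in root replicates 1 and 2, 12382, 11695 and 12179 in the shoots, and 12895 in root replicate 3. That array was therefore left out because of its measured profile. With it, limma called 0 features, against 5049 at an unadjusted p under 0.05, and the differences of strongly changed genes shrank to a mean of 0.669 of those from 5 arrays. Pollen markers, an absent organ, stayed near the bottom of the scale, with VGD1 between 1.65 and 1.99 on the 5 arrays, and no listed seed marker was measured.

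Levels are given as log2 expression, so that a difference of 1 is a 2-fold change, and every difference is root minus shoot. A gene was called when its adjusted p was under 0.05 (limma, 2 root against 3 shoot arrays, Benjamini-Hochberg over all 38408 features). Of the features, 13573 were called (35.3%), 6615 higher in root and 6958 higher in shoot (17.2% and 18.1%). Of all features, 7132 carry the same values as another feature on every array, so that some measurements stand in these counts more than once. Among the 16548 genes that could be annotated, 6243 (37.7%) were called, of which 3308 (20.0%) were called higher in root and 2935 (17.7%) higher in shoot. Members of the gene lists and families below come mostly from the 1797 genes with a symbol (the NPF genes were matched by a synonym), of which 47.7% were called, 24.7% higher in root and 23.0% higher in shoot, and their counts are to be read against these shares. Well-known families such as aquaporins and MYB factors had no member among the genes measured under a matching symbol, and many lists hold few members. The values of the organs did not overlap in 64.3% of genes. Where a gene lies near 2 or 3 in one organ, its level there is in the range of seed and pollen genes, whose means were 1.80 to 3.77, and signal over background was not part of the table. Differences against such a level are those of the deposited values, with no statement that the dim organ expressed the gene, and no fold is given for them. The median difference over all annotated genes was -0.08, and the median half-width of a feature's 95% interval was 0.46.

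Among annotated genes, those with large differences were more often higher in root. At least 4-fold, 917 genes (5.54%) were higher in root and 715 (4.32%) higher in shoot, and at least 16-fold, 243 were higher in root and 102 in shoot. At 64-fold or more, 41 genes were higher in root and 17 in shoot. At the lowest step of 2-fold the counts were 1920 and 1718. Over all features, unnamed ones included, the balance at the 4-fold and 2-fold steps was the other way, with 1752 features higher in root and 2070 in shoot at 4-fold, and 3798 and 4515 at 2-fold. At 16-fold it was again to the root, with 451 and 216 features. In the plot of mean levels of the annotated genes, the points farthest from the diagonal include root genes that are dim in shoot and shoot genes that are dim in root.

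**Figure D1:**
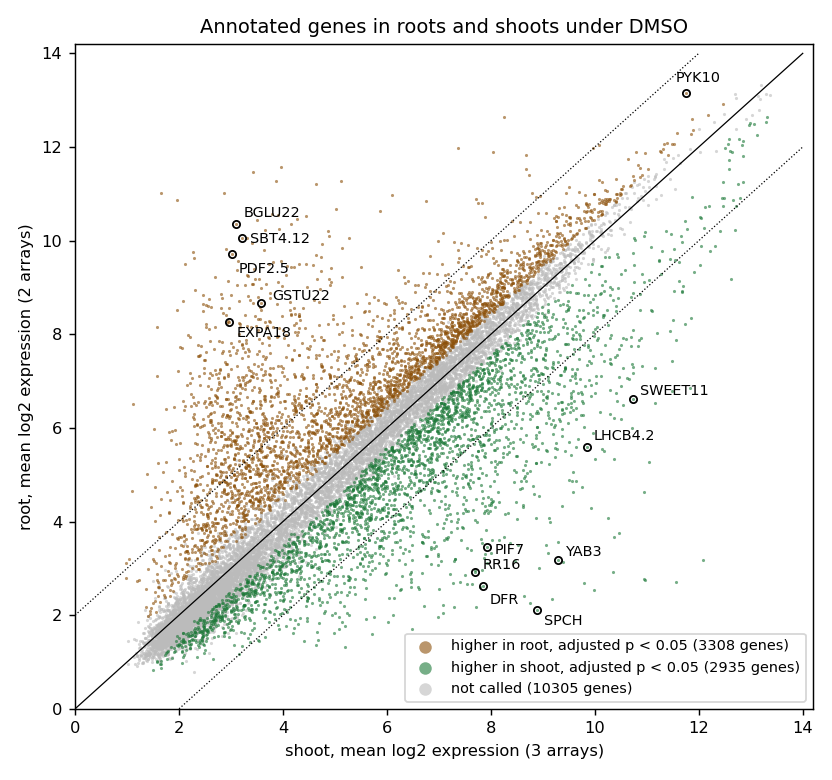
Mean log2 expression of each annotated gene in root (2 arrays, vertical axis) against shoot (3 arrays, horizontal axis) under DMSO, with 3308 genes called higher in root in brown, 2935 called higher in shoot in green and the others in grey. Dotted lines mark a 4-fold difference; BGLU22, SBT4.12 and PDF2.5 stand near 10 in root and near 3 in shoot, and SPCH near 2 in root and near 9 in shoot.

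Beta-glucosidases, a protease and a defensin headed the named genes higher in root. BGLU22, a beta-glucosidase of the PYK10 group, which release defence compounds from sugar conjugates in root ER bodies, had 10.44 and 10.25 in roots, against 3.67, 2.55 and 3.06 in shoots. The root values lay above all shoot values, a difference of 7.25 ± 0.34 (SE; limma, adjusted p = 0.000114). Its neighbour BGLU21 had 10.44 and 10.44 in roots and 2.89, 3.87 and 3.72 in shoots, a difference of 6.94. The 2 genes are close copies, and how far their probes share signal was not tested. SBT4.12, a subtilisin-like protease, averaged 10.06 ± 0.09 in roots and 3.22 ± 0.47 in shoots (SD, n = 2 and 3), a difference of 6.84. PDF2.5, a plant defensin, had 9.82 and 9.59 in roots, against 2.89, 3.13 and 3.03 in shoots, a difference of 6.69 ± 0.15 (adjusted p = 5.97e-05). These 4 genes, named for their large differences, showed no overlap between the organs, a trait shared by 64.3% of annotated genes.

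The remaining genes of the 15 named as most root-biased ranged from 4.81 to 6.32 in difference. They included the osmotin OSM34 (6.32), the class III peroxidase Prx37 (5.94), the glucosyltransferase UGT76B1, which conjugates immune signals (5.83), and the root hair expansin EXPA18 (5.29). Others were the carboxypeptidase-like gene scpl28 (5.13), the glutathione transferase GSTU22 (5.08), the matrix metalloproteinase gene MMP (5.06), the SKU5-like genes sks15 and sks16 (5.23 and 5.02), the glucosyltransferase UGT73B4 (4.81) and ATC, a relative of the flowering regulator TFL1 (4.81). Genes without a symbol went further: AT3G28550 had 11.17 and 10.89 in roots and 1.51, 1.58 and 1.86 in shoots, the largest difference among annotated genes called higher in root (9.38). AT3G54580 (8.90) and AT1G52060 (8.16) followed.

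Regulators of the root were nearly all higher in root. Of 8 measured genes of root meristem and tissue patterning, 7 were called higher in root and 0 higher in shoot, with a list median of 2.62 against -0.08 over all annotated genes. AGL21, a MADS-box factor that promotes lateral root growth, had 6.87 and 7.37 in roots and 2.51, 2.49 and 2.16 in shoots, a difference of 4.73. The lateral root initiation factors LBD29 and LBD16, which act downstream of auxin, differed by 3.71 and 3.57. LBD16 had 7.02 and 7.09 in roots and 3.29, 3.61 and 3.57 in shoots, with no overlap. AGL42 (2.88), the ground tissue factor JKD (2.37), UPB1, which controls the balance of reactive oxygen at the root's growth zone (1.96), and the lateral root boundary gene PUCHI (0.76) were also called. LHW, a factor of vascular cell division, was not called (0.26). With the array titled root DMSO replicate 3 kept, the list median was 1.73.

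Of the few listed genes of root barriers and root hairs, most were called higher in root. FACT, a caffeoyl transferase that makes the alkyl caffeates of root waxes, had 7.5 and 7.4 in roots, against 4.1, 4.3 and 4.1 in shoots (difference 3.29). GSO1, the receptor kinase needed for a closed Casparian strip, differed by 2.1. The hair expansins EXPA18 and EXPA7 differed by 5.29 and 2.21, and in shoots EXPA18 spread widely, with 3.91, 1.74 and 3.24. SCN1, a regulator that confines hair growth to a single site of the cell, was close in both organs, at a difference of 0.17 that was not called.

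**Figure D2:**
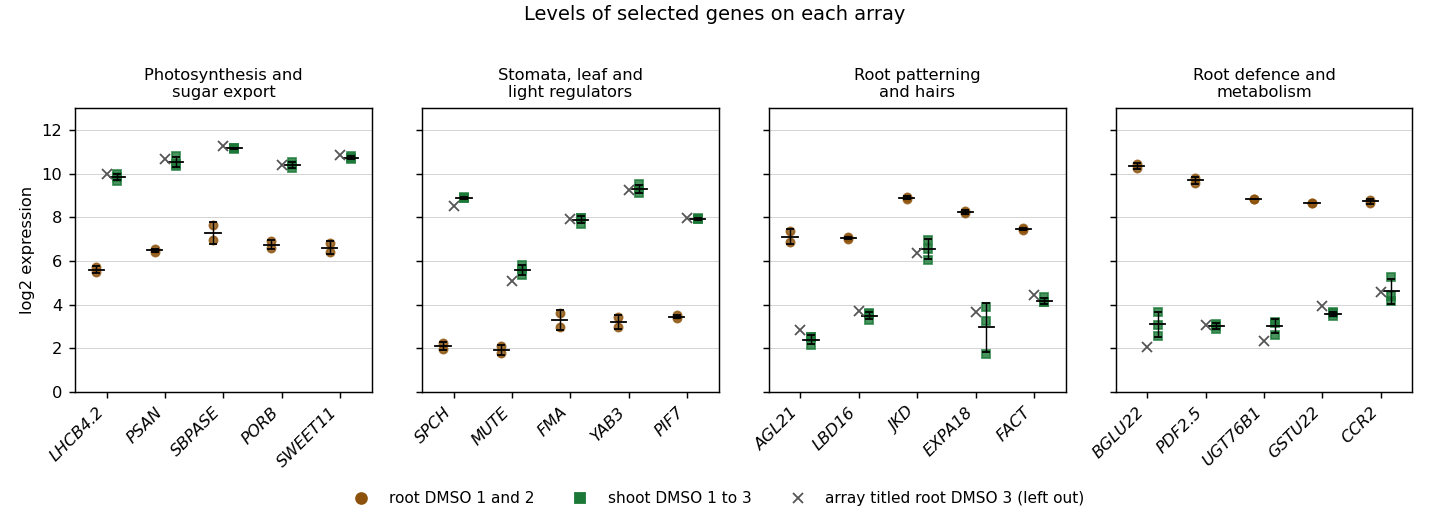
Log2 expression of 20 genes (vertical axis) on each array, with brown circles for root DMSO replicates 1 and 2, green squares for shoot DMSO replicates 1 to 3, and bars for the mean and SD of each organ. Grey crosses show the array titled root DMSO replicate 3, which was left out and lies with the shoots, as for BGLU22 at 2.07 and SPCH at 8.54.

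The ER body and beta-glucosidase list was split between the organs. Of its 30 measured members, 16 were called higher in root and 7 higher in shoot, with a median of 0.89 (0.43 with root DMSO replicate 3 kept). PYK10, the main beta-glucosidase of root ER bodies, was bright in both organs, with 13.23 and 13.07 in roots and 11.69, 11.72 and 11.87 in shoots (difference 1.39). NAI2, which ER bodies need to form, differed by 1.95, and NAI1, the bHLH factor that switches these genes on, by 2.16. Of 5 jacalin-related lectins, some of which join the PYK10 complex, 4 were called higher in root, among them JAL31 (3.41), JAL34 (2.96) and JAL33 (2.67), and JAL23 was called higher in shoot (-1.40). BGLU45 and BGLU46, which act on monolignol glucosides, differed by 2.69 and 3.36. On the shoot side stood BGLU40 (-3.66), BGLU33 (-3.41) and BGLU44 (-2.95). BGLU40 had 4.94 and 5.12 in roots and 8.57, 8.66 and 8.84 in shoots, with no overlap.

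UDP-glycosyltransferases and glutathione S-transferases were called in both directions, and a mixed list of phenylpropanoid and carboxypeptidase-like genes only higher in root. Of 52 UDP-glycosyltransferases, 20 were higher in root and 14 higher in shoot, with a median of 0.08. UGT76B1 had 8.83 and 8.84 in roots and 3.17, 3.21 and 2.63 in shoots, whereas UGT73C6, a flavonol glucosyltransferase, had 1.93 and 1.97 in roots and 6.02, 5.65 and 5.58 in shoots (-3.80). Neither gene showed overlap between the organs, as was so for 64.3% of annotated genes. Of 15 glutathione S-transferases, 6 were higher in root, led by GSTU22 (5.08), GSTU25 (4.02) and ATGSTF13 (3.45), and 4 higher in shoot, led by GSTU18 (-2.34). Of 11 phenylpropanoid and lignin genes, a list that also takes in serine carboxypeptidase-like enzymes, 6 were higher in root and 0 higher in shoot. Those called were CCR2, HCT and the carboxypeptidase-like genes SCPL15, SCPL27, SCPL45 and SCPL49. The phenylpropanoid genes 4CL8 and CCOAMT were not called. CCR2, a cinnamoyl-CoA reductase, had 8.81 and 8.66 in roots, against 4.16, 4.40 and 5.25 in shoots (4.13). HCT, an enzyme shared by most lignin precursors, differed by 0.48. Of 26 cytochrome P450 genes, 5 were called higher in each organ, no more than the 24.7% and 23.0% of genes with a symbol. Most of the 26 belong to the CYP71B subfamily, among them CYP71B23 at 2.55 and CYP71B35 at -2.64, and most other P450 families are not covered.

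The metallothionein MT1C, a small metal-binding protein, led the metal genes, with 9.89 and 9.79 in roots and 5.60, 5.25 and 4.56 in shoots (4.70). Of 10 genes taken by symbol for metal homeostasis, 3 were called higher in root. They were MT1C and the zinc transporter family members ZIP9 (0.94) and ZIP6 (0.91). NRAMP5 was called higher in shoot (-0.72). The 10 still hold FRO1 (AT5G67590, 0.03, not called), a gene of mitochondrial complex I and not the ferric reductase of that name. Of 16 transporters of ions and nutrients, 3 were called higher in each organ, no more than the 24.7% and 23.0% of genes with a symbol. CHX16, a cation/proton exchanger, was higher in root (3.08), and CHX20, a related exchanger known from guard cells, higher in shoot (-2.05). In the NPF family of nitrate and peptide transporters, 4 of 10 were higher in root, led by NPF5.13 (2.47) and NPF5.14 (2.45), and 3 higher in shoot, led by NPF3.1 (-2.22).

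Cell wall genes had members on both sides. Of 44, 17 were called higher in root and 6 higher in shoot, and the list median was 0.03. Alpha-expansins, which loosen walls during growth, showed 5 of 13 higher in root (EXPA18, EXPA7, EXPA9, EXPA4 and EXPA15) and 2 higher in shoot. EXPA8 had 5.68 and 5.67 in roots and 8.99, 9.39 and 9.37 in shoots (-3.58), and EXPA16 differed by -2.64. XTH21, a xyloglucan-modifying enzyme known from root growth, differed by 3.56 and the laccase LAC16 by 3.23. Among 19 endoglucanases of the GH9 family, 8 were higher in root and 2 higher in shoot, with GH9C1 at 4.52. Among 24 TBL genes, whose characterised members add acetyl groups to wall polysaccharides, 12 were higher in root and 5 higher in shoot, from TBL36 at 3.01 to TBL26 at -2.07. The GH9, TBL, NPF and further families taken by symbol were chosen after their values were seen.

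The listed photosynthesis genes of the nucleus were all lower in root, and the list holds only genes with a symbol. All 10 nuclear genes of the photosystem list, which also holds an ATP synthase subunit, were called higher in shoot, with a median of -3.14. LHCB4.2, an antenna protein of photosystem II, had 5.71 and 5.48 in roots, against 9.87, 9.69 and 9.97 in shoots (-4.25 ± 0.15 SE, 19.0-fold lower in root, adjusted p = 8.80e-05). The photosystem I subunits PSAN and PSAE-1 differed by -4.06 and -3.67, and the photosystem II subunit PSBW by -3.43. PSBW still reached 9.08 and 9.30 in roots, against 12.54, 12.74 and 12.57 in shoots. NdhL, a nuclear subunit of the chloroplast NDH complex outside that list, differed by -4.61. The smallest difference was that of PGRL1B, a factor of cyclic electron flow (-0.88). Keeping root DMSO replicate 3 moved the list median to -2.1.

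Carbon fixation and pigment synthesis followed. The 4 enzymes of the Calvin cycle and photorespiration measured under a listed symbol were called higher in shoot. They were SBPASE (-3.87), the peroxisomal reductase HPR (-3.36), PRK (-3.18) and RCA, the Rubisco activase (-2.60). SBPASE had 6.94 and 7.63 in roots and 11.18, 11.17 and 11.13 in shoots. In all 4 of these genes root replicate 2 lay above root replicate 1, by a median of 0.73, against a median of 0.01 over all annotated genes; no shoot value was reached. NdhL (6.10 and 6.99) and the plastid glycolate transporter LrgB (5.78 and 6.59) showed the same order of the root arrays, and photosystem genes, with a median of -0.12, did not. What separated the 2 root arrays in these genes was not tested. Of 6 genes of chlorophyll and haem synthesis, 5 were called higher in shoot, with PORB, the light-dependent protochlorophyllide reductase, at -3.66 and CHLM, the magnesium protoporphyrin methyltransferase, at -2.55. HEMA2, a glutamyl-tRNA reductase known outside green tissue, was not called (0.26).

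Genes of the chloroplast genome differed less than the nuclear photosystem genes. Of 63 measured, 52 were called higher in shoot and 0 higher in root, with a median of -1.21 and a range of -2.97 to 0.12. Their levels were high in both organs, with a median level of 11.9, against a highest value of 13.8 on the 5 arrays. The 10 ndh genes, which encode the NDH complex of cyclic electron flow, were all called, with a median of -1.93. The 4 genes of the plastid RNA polymerase had a median of -1.54 with 4 called, and 13 genes of plastid ribosomal proteins a median of -1.55 with 12 called. Photosystem II genes (psb) had a smaller median, -0.72, with 11 of 13 called. psbM differed most (-2.97), with 7.86 and 7.96 in roots and 10.75, 10.89 and 10.99 in shoots. psbA, which encodes the D1 protein of photosystem II, was not called (0.12). Medians of the photosystem I, cytochrome b6f and ATP synthase genes were -0.59, -0.50 and -0.74. These genes are transcribed together in long units and are not independent of each other. The differences among the groups of chloroplast genes, and between chloroplast and nuclear genes, were not tested. How far these differences follow the brightness of the features, many of them near the top of the scale, was not tested either.

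**Figure D3:**
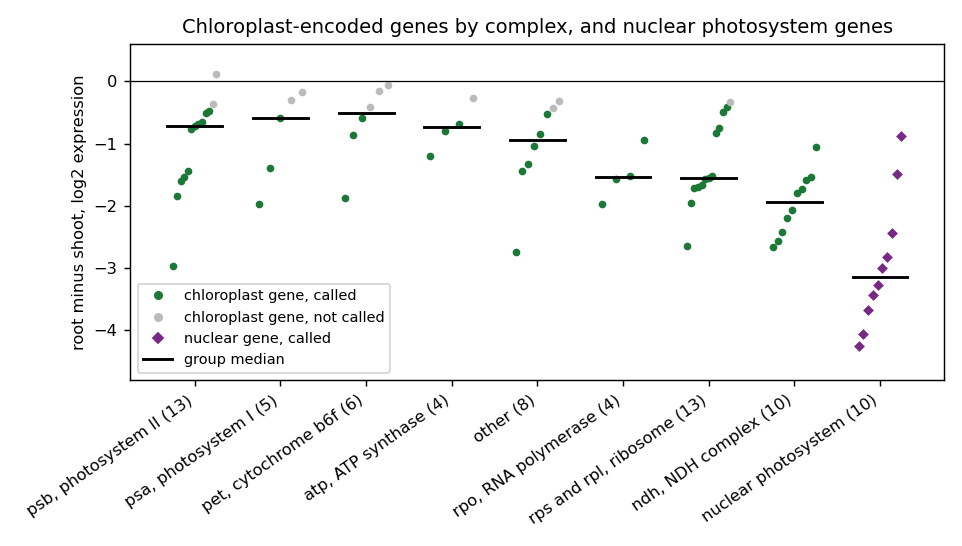
Root minus shoot log2 expression (vertical axis) of 63 chloroplast-encoded genes, grouped by the complex they encode, and of 10 nuclear photosystem genes at the right. Horizontal bars are group medians, from -0.50 for the cytochrome b6f genes to -1.93 for the ndh genes and -3.14 for the nuclear genes, and grey points are chloroplast genes that were not called.

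Genes around plastids and sugar also leaned to the shoot. Both plastid division genes measured under a listed symbol, FTSZ2-2 (-1.68) and FTSZ2-1 (-1.40), were called higher in shoot. Among 7 OTP genes, RNA-binding proteins that process organelle transcripts, 3 were called higher in shoot, OTP86, OTP70 and OTP84, and 0 higher in root. Of 24 genes of starch, sucrose and sugar transport, 9 were higher in shoot and 3 higher in root, with a median of -0.46. SWEET11, which releases sucrose towards the phloem of leaves, had 6.42 and 6.82 in roots and 10.80, 10.68 and 10.74 in shoots (-4.12). SWEET1 differed by -3.12, and ATSPS4F, a sucrose phosphate synthase outside that list, by -4.31. The members higher in root were vacuolar sugar transporters: TMT1 had 11.04 and 10.99 in roots, against 8.98, 8.76 and 8.65 in shoots (2.22), and SWEET17 and SWEET16 differed by 0.96 and 0.93. Of 14 SWEET genes, 9 were not called in either direction. ALDH11A3, the non-phosphorylating glyceraldehyde phosphate dehydrogenase, was higher in shoot (-3.18), and of 8 ALDH genes 5 were higher in root and 2 higher in shoot.

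Stomatal and leaf regulators gave the largest shoot differences among named genes. SPCH, the bHLH factor that starts the stomatal lineage, had 2.25 and 1.96 in roots, against 8.93, 8.88 and 8.87 in shoots, a difference of -6.79 ± 0.14 (SE; adjusted p = 5.97e-05), with the root values at the dim end. MUTE, which ends the divisions of that lineage, had 1.77 and 2.08 in roots and 5.64, 5.81 and 5.36 in shoots (-3.68). FMA, the factor FAMA of guard cell formation, differed by -4.59, and STOMAGEN, a peptide of the mesophyll that raises stomatal number, by -4.68. YAB3, YAB2 and YAB5, YABBY factors of the lower leaf side, differed by -6.11, -4.70 and -4.57. YAB3 had 2.96 and 3.42 in roots and 9.28, 9.51 and 9.10 in shoots. No array of these genes overlapped between the organs, as was so for 64.3% of annotated genes. Of the 10 measured genes of the list on stomata, shoot meristem and leaf, 7 were called higher in shoot and 0 higher in root, with a median of -3.16 (-2.22 with root DMSO replicate 3 kept). CLV3, PHV and TCP1 were not called, and CLV3 was dim in both organs.

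Further shoot genes came from several pathways. DFR, the dihydroflavonol reductase of anthocyanin synthesis, had 2.69 and 2.55 in roots and 7.81, 7.92 and 7.80 in shoots (-5.22), and 3 of 7 flavonoid genes were higher in shoot. PIF7, a phytochrome-interacting factor of shade growth, had 3.50 and 3.41 in roots, against 7.91, 7.91 and 7.97 in shoots (-4.48), and GI, a clock component, was slightly higher in root (0.58). THI2.2, a thionin, differed by -4.60 and iqd21, a calmodulin-binding protein, by -5.32. WSD1, a wax ester synthase of the shoot cuticle, differed by -2.58 with a shoot mean of 4.47. The peroxidase PRXCA differed by -3.11. Among genes without a symbol, AT3G16660 had 2.97 and 3.40 in roots and 12.14, 12.12 and 11.96 in shoots (-8.89), the largest difference of a gene called higher in shoot, followed by AT4G22485 (-8.85) and AT1G66100 (-8.22).

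Of 20 auxin genes, 6 were higher in root and 5 higher in shoot, against 24.7% and 23.0% of genes with a symbol. The GH3 enzymes, which conjugate auxin to amino acids, included GH3.1 with 6.74 and 6.62 in roots and 3.97, 3.68 and 4.05 in shoots (2.78), GH3.17 (1.75), and GH3.9 on the shoot side (-2.24). Auxin synthesis genes of the YUC family were likewise divided, with YUC6 at 1.53 and YUC4 and YUC2 at -1.43 and -1.28. Of 11 cytokinin genes, RR16 (-4.79) and ARR15 (-2.26), response regulators that dampen the signal, were higher in shoot, and the purine permease PUP19 was higher in root (1.29). RR16 had 2.59 and 3.24 in roots and 7.86, 7.93 and 7.31 in shoots. The gibberellin receptors GID1B (2.19) and GID1A (0.47) and the brassinosteroid receptor BRL1 (2.06) were higher in root. A further gibberellin receptor, GID1C, was not called (0.25). EXO, a brassinosteroid-responsive growth gene, was higher in shoot (-1.37).

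Of 41 listed signalling peptides, 14 reached a mean of 5 in either organ, 8 were called higher in root and 10 higher in shoot. The shares over genes with a symbol were 24.7% and 23.0%. Of 18 RALF-like peptide genes, 4 were higher in root and 2 higher in shoot, with RALFL27 at 1.71, and the peptide gene RTFL7 differed by 1.79. Of 16 CLE genes, the family of the transgene, 2 were higher in root and 6 higher in shoot. CLE14 had 6.45 and 6.21 in roots, against 3.78, 3.14 and 3.32 in shoots (2.92), and CLE42, of the group that keeps vascular cells undifferentiated, had 6.58 and 6.52 in roots and 8.33, 8.48 and 8.36 in shoots (-1.85). The level of CLE3 itself was not analysed here. Of 63 LCR cysteine-rich genes, 5 were called, 1 higher in root and 4 higher in shoot, with a median level of 1.98. Of 8 plant defensins with a PDF symbol, PDF2.5 (6.69) and PDF2.1 (2.54) were higher in root, and 2, with PDF1.4 first (-2.39), higher in shoot. Defensins measured under an LCR symbol are counted with the LCR genes. Among them were the bright LCR68 (1.59, called higher in root) and LCR69 (0.27, not called).

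Among transcription factors, 3 of 7 WRKY genes were higher in root and 0 higher in shoot. WRKY42 and WRKY6, regulators of phosphate transport, differed by 2.88 and 2.51, and WRKY6 had 9.25 and 9.38 in roots and 6.84, 6.73 and 6.83 in shoots. Of 12 bHLH genes, 4 were higher in root and 3 higher in shoot, against 24.7% and 23.0% of genes with a symbol. Of 64 AGAMOUS-LIKE genes, 53 were not called and the median level was 2.37. Of 16 bZIP genes, 5 were higher in root, with bZIP44 at 2.14.

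Cell division genes leaned to the shoot with exceptions. Of 13 cell cycle genes and histones, 7 were higher in shoot, among them the histone H2B genes HTB2 (-1.29) and HTB1 (-1.03) and the spindle checkpoint gene BUB3.1 (-1.01), and 2 higher in root. SIM, an inhibitor of cyclin-dependent kinases that promotes endoreduplication, had 7.53 and 7.33 in roots and 5.32, 5.49 and 5.27 in shoots (2.07). Of 12 tetraspanins, membrane proteins of cell-to-cell communication, 6 were higher in root, led by TET6 (2.45), and TET10 was higher in shoot (-1.92). Of 10 PUB ubiquitin ligases, 5 were higher in root, led by PUB22 (2.87) and PUB23 (2.63), which restrain immune responses. PUB26 was called higher in shoot (-1.01). Of 6 methionine sulfoxide reductases B, which repair oxidised proteins, 4 were higher in root, led by MSRB9 (3.10), MSRB4 (2.51) and MSRB5 (2.14). MSRB6 was called higher in shoot (-0.62). Of 9 autophagy genes, 4 were higher in root and 0 higher in shoot, led by ATG8H (2.27). Of 13 RNA polymerase subunit genes, 2 were called, both higher in shoot.

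**Figure D4:**
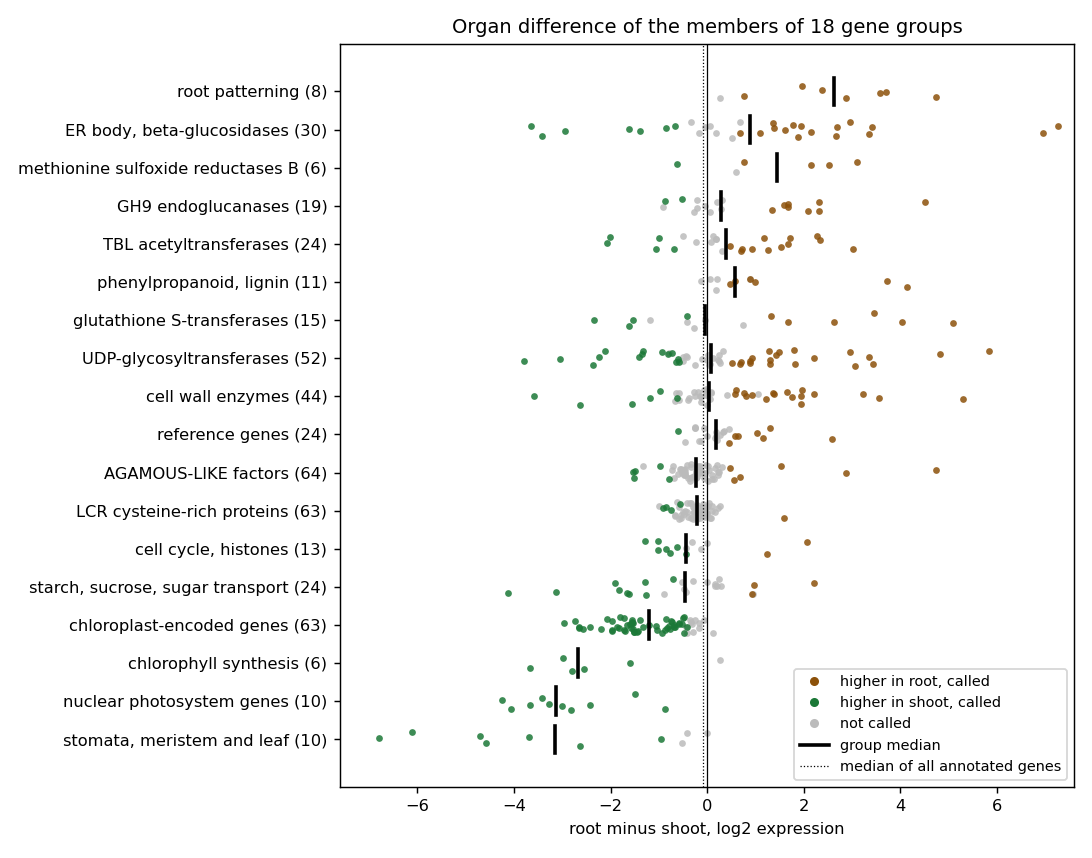
Root minus shoot log2 expression (horizontal axis) of each measured member of 18 gene groups, with the number of members in brackets, black bars for group medians and a dotted line at the median of all annotated genes (-0.08). Called members are brown (higher in root) or green (higher in shoot); medians run from 2.62 for root patterning to -3.16 for stomata, meristem and leaf, while enzyme families such as the UDP-glycosyltransferases (0.08) spread to both sides.

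Of 24 actin, tubulin, ubiquitin-conjugating and related genes often taken as references, 7 were higher in root and 1 higher in shoot, with a median of 0.19. Together these are fewer than the 47.7% called among genes with a symbol, and the difference in share was not tested. GAPC2, the cytosolic glyceraldehyde phosphate dehydrogenase, had 11.56 and 11.49 in roots and 11.35, 11.23 and 11.41 in shoots and was not called (0.20, adjusted p = 0.292, 95% interval -0.12 to 0.52). UBC35 (0.16) and UBC28 (0.18) were not called either. TUB1, a beta-tubulin known from roots, differed by 2.58.

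The organ difference was read again on 5 arrays of estradiol-treated seedlings that share no array with the DMSO comparison, roots of replicates 1 to 3 and shoots of replicates 1 and 2. The array titled shoot estradiol replicate 3 was left out there for its root profile. With estradiol, 6333 genes (38.3%) were called, of which 3254 (19.7%) were higher in root and 3079 (18.6%) higher in shoot. Of the 6243 genes called under DMSO, 6199 (99.3%) had the same direction with estradiol and 5083 were also called, which is 81.4% of the DMSO calls and 80.3% of the estradiol calls. Among the 1632 genes with a 4-fold difference under DMSO, 1632 kept their direction and 1629 were called, with a median ratio of the estradiol to the DMSO difference of 0.965. SPCH differed by -6.56 with estradiol and BGLU22 by 7.47. A test of the change in the organ difference between treatments on 10 arrays (limma) called 0 genes (0.0%), while 691 had an unadjusted p under 0.05. PRX52, a peroxidase of lignin synthesis called higher in root under DMSO (0.82), differed by 0.11 with estradiol, and whether these differ is covered by that test.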

How the data were processed

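RNA was hybridised to Affymetrix whole-transcript arrays. The deposited table holds values that the authors made with Affymetrix Expression Console 1.3, per the submitters' processing notes. How features were summarised and normalized, and which genome build was used, is not given in the sources used here. A log2 scale was inferred for these deposited values from their range of 0.19 to 13.8 on the 5 arrays, since no label states it. Array medians were 4.99 to 5.09. Precision is limited by having 2 and 3 arrays, and p-values reflect only how these arrays spread, possibly for technical reasons.

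Of 38408 features, 16722 had 1 gene in the platform annotation, 759 had several and 20927 were unnamed. Names were updated with the RefSeq gene table of TAIR10.1 (16574 features matched by identifier, 140 by symbol or locus tag), giving 16548 genes, of which 1797 had a symbol. A gene was its brightest feature.

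Group means were fitted with limma 3.58.1 in R 4.3.3 (lmFit, eBayes, two-sided). The fit was tested on simulated data. Members, families and 41 gene lists were chosen with earlier results of these data known; 8 list members whose symbol belongs to another kind of gene were removed by name. Named genes are the 15 in each direction with the largest called difference, a symbol and a mean of at least 7 in the higher organ, up to 4 called members per list, up to 2 called against the list's direction, and all markers; further members were named after their values were seen. Replicate numbers were not taken as pairs: deviations of equally numbered root and shoot arrays correlated at 0.10 and 0.08, with only 2 pairs. Promoter and protein sequences were not used here.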

Additional observations from a re-analysis of the deposited data

How the results depend on the processing

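With 5 arrays, 13573 features were called, and 917 and 715 genes were at least 4-fold higher in root and in shoot. Keeping the array titled root DMSO replicate 3, on 6 or on 12 arrays, left 0 calls in each of these counts, and 138 of the 145 named genes were no longer past the threshold. Down-weighting that array gave 15487 features. A test against a log2 difference of 1 (treat) gave 4618 features. Leaving out 1 array gave 8336 to 12477 features, lowest without root replicate 2 and next without root replicate 1 (8529), where the lone root array is assumed to vary like the shoots; the 4-fold counts were 895 to 929 in root and 691 to 739 in shoot. With the replicate number as a block, 9965 features were called on 5 arrays and 14457 on 10 arrays. Trend, robust prior, filter, centring, quantile normalization, plain t statistic and gene summary kept the 3 counts within 1.5 times. Leaving out 1 array ended the call of 5 to 16 of the 145 named genes, and no named gene reversed in any of these settings. Quantile normalization moved the median difference over all features from -0.09 to -0.01. Calls were made for 54.4% of genes with a mean of at least 5 in either organ and 18% of dimmer genes.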

Other observations

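Beside genes with large organ differences, the share of neighbours with a large difference in the same direction was above that over all places, while most neighbours did not share it; the excess was not tested. Among 10385 pairs of next neighbours in the gene table with both genes measured, 93 pairs had both genes at least 4-fold higher in root, 34 had both at least 4-fold higher in shoot and 35 had 1 of each. Beside a gene 4-fold higher in root, 15.1% of measured neighbours were also 4-fold higher in root, against 5.94% of all neighbour places, and for shoot the shares were 7.97% and 4.11%. In root, 7 runs of 3 or more such neighbours were found, and 1 in shoot. The longest, AT1G51830, AT1G51840, AT1G51850 and AT1G51860, had differences of 6.19, 6.52, 4.66 and 5.60. AT1G52050, AT1G52060 and AT1G52070 differed by 6.64, 8.16 and 7.34, and BGLU45, BGLU46 and AT1G61840 by 2.69, 3.36 and 4.36. The shoot run held BGLU33, AT2G32870 and AT2G32880, at -3.41, -5.04 and -5.56. Neighbouring copies of a gene can share probe signal, and its part in these runs was not tested.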
